A study of Caenorhabditis elegans with 2 samples.

Results

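The 30 genes described here build the epidermis of Caenorhabditis elegans and its cuticle. They were taken as a named list, not by a rule on any measured value, out of 19973 nuclear protein-coding genes. The list was chosen with earlier results of these data known. All 30 were found in the annotation. They comprised 7 genes for transcription factors of epidermal fate and differentiation, 12 cuticle collagen genes, 4 genes for other proteins of the apical matrix, and 7 genes for junctions, attachment and the apical membrane. The data came from chromatin immunoprecipitation and sequencing (ChIP-seq), which maps where a protein sits on DNA. The protein was ZTF-11, a zinc finger factor of the Myt1 family that acts in neurogenesis, carrying an eGFP tag. There was 1 group with 2 biological replicates, each of whole mixed-stage embryos of both sexes from strain OP236, of genotype unc-119(ed3) III; wgIs236, whose age is given as unknown. The labels describe wgIs236 as an insertion targeting ztf-11, and both replicates carry it together with the unc-119 mutation. Whole embryos were used, so a peak cannot be assigned to epidermal or neural cells.

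The embryonic epidermis is laid down when GATA factors, led by ELT-1, commit cells to epidermal fate, after which other factors divide it into seam and other epidermal cells and time the moults. Epidermal cells are held together by apical junctions and tied to muscle by hemidesmosome-like attachments. On their apical side they secrete first a sheath of matrix proteins and then a cuticle made mainly of collagens. Mutations in collagen genes can give short (dpy), rolling (rol, sqt) or blistered (bli) worms.

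For each gene, peak summits were counted from 2 kb upstream of its outermost 5′ end to its 3′ end, called the gene window below. Summits came from 4 deposited lists: a relaxed list of 30000 peaks for each replicate, a relaxed pooled list of 12024 peaks called on both replicates together, and a thresholded list of 721 peaks kept for reproducibility, which were the strongest pooled peaks. The relaxed lists by their own description include background. Signal is the value the authors' peak caller gave each peak, on a scale that is not stated. It runs from 12.3 upwards in the pooled list, with a median of 15.4, and from 33.9 upwards in the thresholded list. The read depth behind the peaks is unknown, and the design has no second condition, so the counts of members are set beside the same counts over all genes and no test is attached to them.

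None of the 30 genes had a thresholded summit in its window, where 3.97% of all genes had at least 1. In the relaxed pooled list, 19 of the 30 genes (63.3%) had a summit, against 41% of all genes. They held 54 distinct summits, with signals from 12.4 to 32.7 and a median of 16.1, all below the lowest thresholded peak. Of the 54, 34 (63.0%) lay in just 3 genes, egl-18, vab-10 and ajm-1, which were singled out after their values were seen. The 30 genes held 0.192 summits per kb of window, against 0.126 over all gene windows. The 3 genes held 0.310 per kb and the other 27 held 0.121, a split made by the counts themselves, so neither is set against all genes. Of the 54 summits, 13 had a signal of 20 or more, a cut set after the values were seen, and these were in egl-18, elt-6, nhr-25, sqt-3, vab-10 and ajm-1. Keeping only pooled summits at or above the median signal of the list, 10 of the 30 genes had a summit, against 24.5% of all genes. The density was then 0.106 per kb for the 30 genes and 0.0646 over all gene windows. Of the 31 such summits, counted by gene window, 10 lay outside egl-18, vab-10 and ajm-1, at 0.055 per kb. That split, too, was made by the counts.

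**Figure D1:**
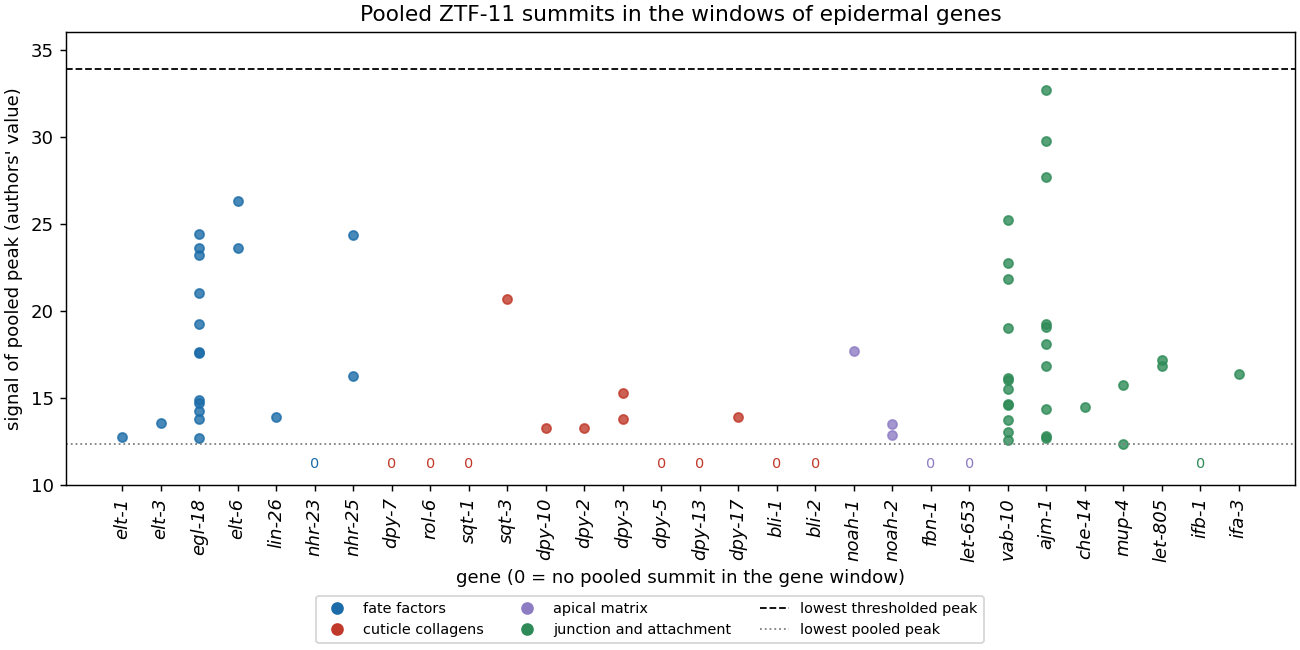
Signal of every pooled summit (y axis, the authors' value) in the window of each of the 30 genes (x axis), coloured by class, with 0 marking the 11 genes that have none. All points lie below the dashed line at 33.9, the lowest thresholded peak, and the highest, at 32.7, is in ajm-1.

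Of the fate factor genes, 6 of 7 had a pooled summit, and egl-18 held most of them. The gene egl-18, which encodes a GATA factor of the seam cells (chromosome IV, 1902322 to 1917840, forward strand), had 12 pooled summits in a window of 17.5 kb. Its neighbour elt-6, which encodes a closely related GATA factor (chromosome IV, 1917977 to 1921643, forward strand), had 2, and 1 summit is shared by both windows. Only 10 of the 19973 genes, egl-18 and vab-10 among them, had 12 or more pooled summits. Genes with windows of 12 to 20 kb had a mean of 2.04, and 99.6% of them had fewer than egl-18. The 12 summits began 607 bp and ended 14595 bp downstream of the outermost 5′ end of egl-18, with a median gap of 1051 bp. A run of 8 of them lay before the next annotated 5′ end of the gene, 11124 bp downstream, and 11 of 12 lay in introns. The remaining summit lay in the non-coding RNA gene F55A8.4, inside egl-18.

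The summits of egl-18 ranged in signal from 12.7 to 24.4 with a median of 17.6. The strongest, 12022 bp downstream (1914166 to 1914521), had a pooled signal of 24.4 at rank 1478 of the pooled list. Its overlapping peak had a signal of 10.5 at rank 6739 in replicate 1 and of 12.96 at rank 1505 in replicate 2. The summit shared with elt-6 (1916739 to 1917094), 1060 bp upstream of elt-6 and in an intron of egl-18, had a pooled signal of 23.6, with 9.19 at rank 10284 in replicate 1 and 12.3 at rank 1745 in replicate 2. The strongest summit of the locus (1918123 to 1918478) lay in an intron of elt-6, 324 bp downstream of its 5′ end, with a pooled signal of 26.3 at rank 1226. It was present at rank 1904 in replicate 1 (signal 14.8) and at rank 1757 in replicate 2 (12.3), similar ranks in both libraries. Over the 12 summits of egl-18, 7 had an overlapping peak in both replicates, 2 in replicate 1 alone and 3 in replicate 2 alone. Replicate 2 ranked 1 of these among its 721 strongest peaks, at rank 685 (signal 17.5, 1908476 to 1908839), at a place where replicate 1 had no peak that overlapped the pooled call. The relaxed lists themselves held 19 summits in the egl-18 window for replicate 1 and 16 for replicate 2. A pair of the egl-18 summits, 1497 and 1698 bp downstream, belong to overlapping pooled peaks and share 1 peak of replicate 2, so they are not separate sites there.

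The 101 bases centred on 4 summits of egl-18 and elt-6 are shown because they include the strongest of each gene and a pair with several GATAA matches. Here and below, sequences are from the RefSeq genome of WBcel235, which is ce11, on the forward strand, and capitals mark GATAA, the core bound by GATA factors, or AAGTTT, the core reported for the Myt1 family, on either strand.
egl-18, 4536 bp downstream, chrIV:1906808-1906908: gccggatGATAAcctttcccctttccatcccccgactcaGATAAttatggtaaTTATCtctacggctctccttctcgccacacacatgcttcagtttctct
egl-18, 12022 bp downstream, chrIV:1914294-1914394: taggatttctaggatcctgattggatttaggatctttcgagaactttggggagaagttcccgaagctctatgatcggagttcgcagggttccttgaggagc
egl-18 and elt-6, shared, chrIV:1916867-1916967: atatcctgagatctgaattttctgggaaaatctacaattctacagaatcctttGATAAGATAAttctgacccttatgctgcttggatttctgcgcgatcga
elt-6, 324 bp downstream, chrIV:1918251-1918351: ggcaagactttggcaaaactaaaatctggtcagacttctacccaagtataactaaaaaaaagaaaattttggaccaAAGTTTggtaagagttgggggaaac
The first holds 3 matches to GATAA and the shared summit holds 2, end to end. The strongest egl-18 summit holds no match to either, and the elt-6 intron holds 1 to AAGTTT.

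The other fate genes had 0 to 2 summits each. The gene nhr-25, for a nuclear receptor of the Ftz-F1 type that acts in seam cells and moulting (chromosome X, 13008493 to 13013964, forward strand), had an intronic summit 3797 bp downstream of its outermost 5′ end (13012112 to 13012467). Its pooled signal was 24.4 at rank 1483, with 24.7 at rank 421 in replicate 1 and 11.1 at rank 2356 in replicate 2. It was thus among the 721 strongest peaks of replicate 1 but not of replicate 2. The second nhr-25 summit, 1950 bp upstream, had a signal of 16.3. The other 3 genes with a summit were lower still. For elt-1, the GATA gene at the head of epidermal specification (chromosome IV, 9614995 to 9620280), the summit had a signal of 12.8 at rank 10919, lay in the 3′ UTR, and had an overlapping peak in replicate 1 alone. For elt-3, the GATA gene of the differentiating epidermis (chromosome X, 13934874 to 13941216), the signal was 13.5 and the summit lay 130 bp from an internal 5′ end. For lin-26, a zinc finger gene needed to keep epidermal cells from taking other fates (chromosome II, 7682198 to 7684764), the signal was 13.9, and its summit lay in the 3′ UTR and in the promoter window of F18A1.1. It had an overlapping peak in replicate 2 alone. The moulting regulator gene nhr-23 (chromosome I, 7214745 to 7221299) had no pooled summit, though replicate 1 had 3 relaxed summits there and replicate 2 had 1, the best at ranks 3556 and 4507.

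**Figure D2:**
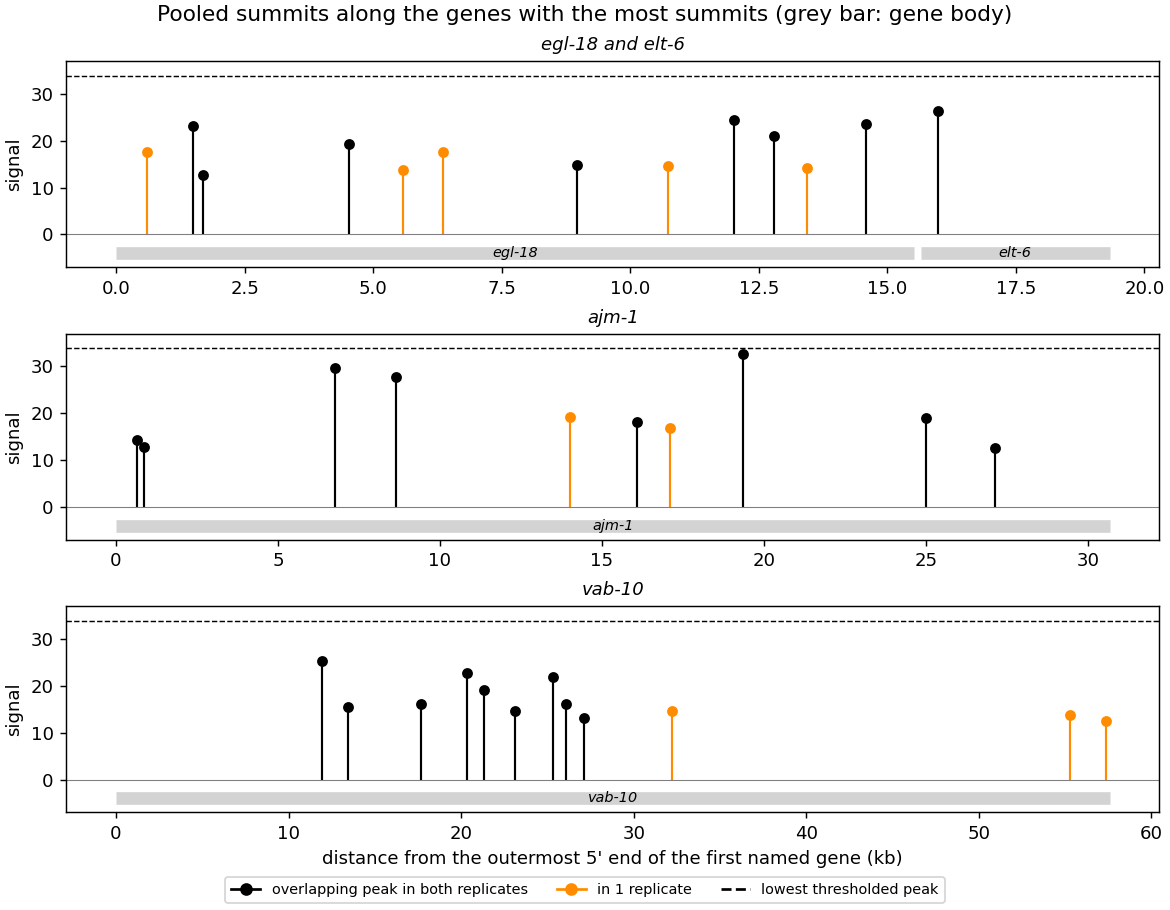
Signal of each pooled summit (y axis, the authors' value) against its distance in kb from the outermost 5′ end (x axis) along egl-18 with elt-6, ajm-1 and vab-10, with gene bodies as grey bars. Black marks summits with an overlapping peak in both replicates and orange those in 1 replicate; the 12 egl-18 summits are spread over 14 kb, and 9 of the 12 vab-10 summits lie within 15.1 kb.

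Cuticle collagen genes had a pooled summit about as often as genes in general. Of the 12, 5 had a summit in the window (41.7%), near the 41% of all genes. Collagen genes are short, with a median window of 3.18 kb, and 30% of all genes with windows up to 4 kb had a pooled summit. Every collagen summit was upstream of its gene, so that 0 of 12 had one when only the gene body was counted. Over all genes, 22.5% had a pooled summit in the gene body, and among those with windows up to 4 kb, as 10 of the 12 collagens have, 10.2% had one. The strongest was at sqt-3, a collagen gene needed from embryonic life on (chromosome V, 12352745 to 12354320, forward strand). That summit, 1256 bp upstream (12351311 to 12351666), had a pooled signal of 20.7 at rank 2332 and a signal of 13.2 at rank 2896 in replicate 1. Replicate 2 had no peak that overlapped it. The summit lay in a non-coding RNA gene, and F23H12.20 and F23H12.21 were both within 250 bp.

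Of the furrow collagen genes, dpy-2, dpy-3 and dpy-10 had weaker summits, and dpy-7 had none in the pooled list. For dpy-3 (chromosome X, 2144605 to 2145647, reverse strand) there was a pair, 64 and 909 bp upstream, with signals of 13.8 and 15.3. The nearer had overlapping peaks in both replicates, at ranks 15179 and 18233, and the farther in replicate 2 alone. The divergent pair dpy-10 and dpy-2 on chromosome II shared 1 summit between them (6713329 to 6713684, signal 13.3, rank 9700), 1280 bp upstream of dpy-10 and 785 bp upstream of dpy-2. It lay in the non-coding RNA gene T14B4.15, and the nearest 5′ end was that of T14B4.19, at 576 bp. For dpy-17, whose collagen works with SQT-3 (chromosome III, 5107330 to 5108492, forward strand), the summit lay 81 bp upstream with a signal of 13.9 and an overlapping peak in replicate 1 alone, at rank 4586.

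The sequences at 3 upstream collagen summits are shown because they are the strongest and the 2 nearest to a 5′ end in this class, with capitals and strand as above.
sqt-3, 1256 bp upstream, chrV:12351439-12351539: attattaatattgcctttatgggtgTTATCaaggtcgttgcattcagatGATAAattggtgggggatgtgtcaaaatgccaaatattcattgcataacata
dpy-3, 64 bp upstream, chrX:2145661-2145761: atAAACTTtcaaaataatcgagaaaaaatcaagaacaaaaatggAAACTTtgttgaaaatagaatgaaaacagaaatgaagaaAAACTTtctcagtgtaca
dpy-17, 81 bp upstream, chrIII:5107199-5107299: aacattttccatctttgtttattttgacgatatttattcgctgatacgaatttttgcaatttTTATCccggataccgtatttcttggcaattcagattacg
The sqt-3 sequence holds 2 matches to GATAA, 1 on each strand. The dpy-3 sequence holds 3 matches to AAGTTT, all on the strand opposite to the one printed, and has a GC content of 24.8%. The dpy-17 sequence holds 1 match to GATAA.

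No pooled summit lay in the windows of dpy-5, dpy-7, dpy-13, rol-6, sqt-1, bli-1 or bli-2. The windows of rol-6 and of the blister collagen genes bli-1 and bli-2 were empty in the pooled list and in both relaxed lists. They span 3.19, 5.2 and 3.04 kb. A relaxed summit of at least 1 replicate was found in 27 of the 30 genes and in 17299 of all 19973 genes. By replicate, 71.1% of all genes had one in replicate 1 and 72% in replicate 2. The windows of dpy-7, dpy-13 and sqt-1 held relaxed summits of replicate 2 alone, the best of them at dpy-7 at rank 1356 (signal 13.5). In dpy-5 both replicates had 1 relaxed summit each, at ranks 14778 and 27238.

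Genes of the apical matrix other than collagens had 3 summits in all. The ZP domain gene noah-1 (chromosome I, 5874416 to 5878958) had 1 in a coding exon (5876121 to 5876476) with a signal of 17.7 at rank 3758, and an overlapping peak in replicate 1 alone at rank 2525. Its relative noah-2 (chromosome IV, 14091254 to 14096626) had 2, lying 18 and 1174 bp upstream with signals of 12.9 and 13.5. The fibrillin-like gene fbn-1 (chromosome III, 7625386 to 7641078) had no pooled summit in a window of 17.7 kb, a length class in which 78.9% of genes had at least 1. Replicate 2 had 2 relaxed summits in fbn-1, the better at rank 10390, and replicate 1 had none. The gene let-653, for a ZP and mucin-like protein that shapes narrow tubes, had no pooled summit either, and 1 relaxed summit in replicate 2 at rank 14278.

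Among the junction and attachment genes, 6 of 7 had a pooled summit, and ajm-1 held the strongest of all 30 genes. The product of ajm-1 marks the apical junction of worm epithelia (chromosome X, 9082946 to 9113619, forward strand, 14 annotated 5′ ends). Its window of 32.7 kb held 10 pooled summits with signals from 12.7 to 32.7 and a median of 18.6. The strongest (9102122 to 9102477) lay in an intron, 19354 bp downstream of the outermost 5′ end and 1462 bp from the nearest 5′ end of the gene. It had rank 793 in the pooled list, where the thresholded peaks end at rank 721. It was the only summit of the 30 genes that overlapped one of the 721 strongest peaks in both replicates, with a signal of 24.0 at rank 456 in replicate 1 and of 18.2 at rank 614 in replicate 2. That is 1 of 54 summits (1.85%), where 53 of all 11300 nuclear pooled summits below the threshold (0.469%) did so. The next ajm-1 summit (9089525 to 9089880, signal 29.8, rank 960) lay in an intron 394 bp from an internal 5′ end, with ranks 3680 and 929 in the replicates. The summit after that (9091401 to 9091756, signal 27.7, rank 1113, replicate ranks 3143 and 852) lay inside a tRNA gene within ajm-1, a kind of gene that exists in near-identical copies, and the part of read placement in this value was not tested. Of the 10 summits 8 had overlapping peaks in both replicates, 6 lay within 1 kb of an annotated 5′ end of ajm-1, and the 2 nearest the start belong to overlapping peaks that share their replicate peaks.

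The sequences of the strongest ajm-1 summits outside the tRNA gene and of the strongest nhr-25 summit are shown as the highest signals of the 30 genes and a peak that replicate 1 placed among its strongest 721. Capitals mark a match on either strand to GATAA, to the Myt1 letters AAGTTT, or to the repeat GAGAGA.
ajm-1, 19354 bp downstream, chrX:9102250-9102350: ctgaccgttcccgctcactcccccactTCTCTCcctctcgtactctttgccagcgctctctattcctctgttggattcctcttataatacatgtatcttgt
ajm-1, 6757 bp downstream, chrX:9089653-9089753: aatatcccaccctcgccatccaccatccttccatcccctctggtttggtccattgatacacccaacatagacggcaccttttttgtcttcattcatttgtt
nhr-25, 3797 bp downstream, chrX:13012240-13012340: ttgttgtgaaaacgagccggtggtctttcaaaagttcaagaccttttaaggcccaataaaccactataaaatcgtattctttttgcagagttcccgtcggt
The first holds 1 match to GAGAGA, on the opposite strand, and the other two hold none of the 3 motifs.

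The spectraplakin gene vab-10 (chromosome I, 11747424 to 11804991, reverse strand, 8 annotated 5′ ends), whose product links attachments to the cytoskeleton, had 12 pooled summits in a window of 59.6 kb. The mean over genes with windows over 20 kb was 3.95, and 97.3% of them had fewer than vab-10. For ajm-1 that share was 91.6%. This length class has no upper limit, so its genes are not all of like length to vab-10. Per kb of window vab-10 had 0.201 summits and ajm-1 0.306, where all gene windows together had 0.126. Signals in vab-10 ran from 12.6 to 25.2 with a median of 15.8. A run of 9 summits lay from 11954 to 27096 bp downstream of the outermost 5′ end. Each of the 9 had overlapping peaks in both relaxed lists, which include background. Several of these peaks were weak, with ranks down to 27305 in replicate 1 and 21878 in replicate 2. The 3 summits outside the run each had a peak in 1 replicate only. The strongest (11792859 to 11793214, signal 25.2) lay in an intron 912 bp from an internal 5′ end, at rank 1738 in replicate 1 and 13157 in replicate 2. The next (11784488 to 11784843, signal 22.7) lay 727 bp from an internal 5′ end, at ranks 3332 and 2348.

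The remaining attachment genes had 0 to 2 summits, none above a signal of 17.2. The gene let-805, for the attachment receptor myotactin (chromosome III, 2658083 to 2681112), had 2 upstream, at 26 bp (2657879 to 2658234) and 1521 bp, with signals of 17.2 and 16.8 in a window of 25.03 kb, and none in its gene body. The nearer had ranks 4141 (pooled), 17660 (replicate 1) and 14537 (replicate 2). The gene mup-4, for another epidermal attachment receptor (chromosome III, 7479680 to 7489105), had 2, of 12.4 in an intron 180 bp downstream and of 15.8 in the 3′ UTR, both with an overlapping peak in replicate 2 alone. The stronger (7479867 to 7480222) had rank 5516 in the pooled list and 12746 in replicate 2. For che-14, a Dispatched-like gene of apical secretion (chromosome I, 5746633 to 5754306), the summit 1213 bp upstream (signal 14.45) lay in a coding exon of rad-8. The intermediate filament gene ifa-3 (chromosome X, 16267197 to 16270069) had 1 in its 3′ UTR (16267196 to 16267551), with a signal of 16.35 at rank 4874 and ranks 12878 and 17293 in the replicates. The antisense RNA gene W10G6.5 lay within 250 bp, and the nearest 5′ end was that of mua-6, at 1688 bp. The other filament gene, ifb-1 (chromosome II, 5765618 to 5772084), had no pooled summit, and its best relaxed summits ranked 19490 and 16752.

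Between the classes, the share of genes with a pooled summit was 85.7% for fate factors, 41.7% for collagens, 50% for other matrix genes and 85.7% for junction and attachment genes. The median windows were 7.47, 3.18, 7.42 and 11.4 kb in the same order. Over all genes the share with a pooled summit rose from 30% for windows up to 4 kb through 45.4% (4 to 8 kb), 65.8% (8 to 12 kb) and 78.9% (12 to 20 kb) to 90.9% above 20 kb. Giving each gene the share of its length class would put a pooled summit in 3.92 of the 7 fate genes, where 6 had one, 3.90 of the 12 collagens (5), 2.15 of the 4 matrix genes (2) and 5.15 of the 7 junction genes (6). The same sum for all 30 is 15.1, beside 19. Per kb of window, fate genes had 0.320 summits, or 0.167 without egl-18, collagens 0.145, matrix genes 0.0768 and junction genes 0.185, or 0.101 without vab-10 and ajm-1. All genes together had 0.126, with their own highest counts left in. These are descriptions of lists of 4 to 12 genes, and no difference between the classes was tested. Without replicate 2, that is with the 12024 strongest peaks of replicate 1, 2 collagens had a summit, and without replicate 1, 6 had. Over all genes, of any window length, the share was 42.3% with either list.

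**Figure D3:**
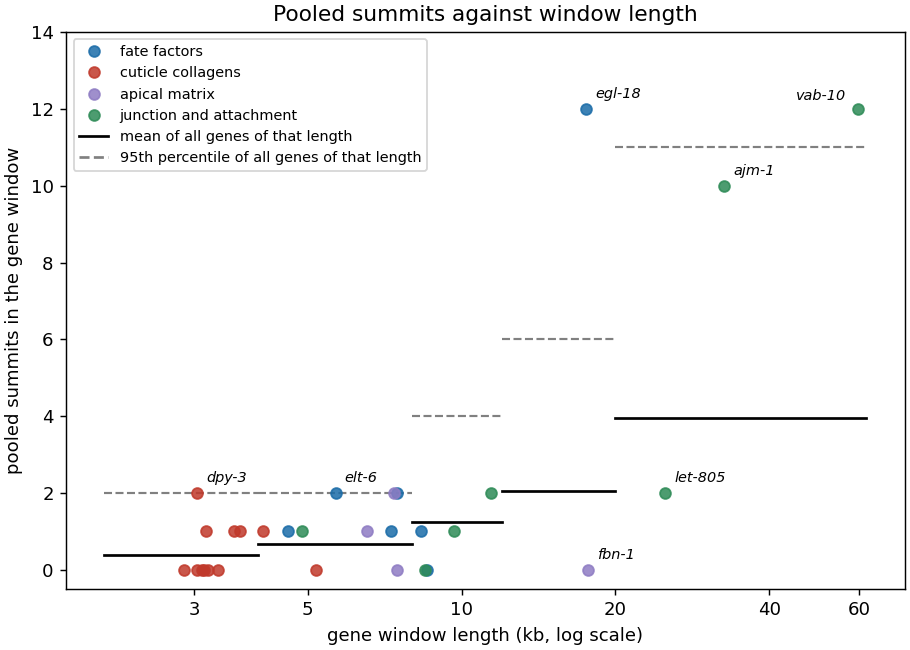
Pooled summits in the gene window (y axis) against window length in kb (x axis, log scale) for the 30 genes by class, with the mean (solid) and 95th percentile (dashed) of all genes in 5 length classes. The points for egl-18 and vab-10, both at 12, lie above the dashed line of their length class and ajm-1, at 10, lies just below it. The longest class, over 20 kb, has no upper limit, so its flat lines cover windows of unlike length.

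In the promoter window, from 1000 bp upstream to 200 bp downstream of any 5′ end of a protein-coding transcript, 10 of the 30 genes had a pooled summit, against 22.4% of all genes. They were egl-18, elt-3, dpy-2, dpy-3, dpy-17, noah-2, vab-10, ajm-1, mup-4 and let-805. With the strongest 12024 peaks of replicate 1 alone the number was 5, and with those of replicate 2 alone it was 10. The share over all genes is not given for these lists, so neither number can be set against it. At or above the median signal of the pooled list, 3 of the 30 genes had a promoter summit, against 13.7% of all genes. By annotated feature, introns held the most. Of the 54, 31 (57.4%) lay in introns, 8 (14.8%) in intergenic DNA, 6 (11.1%) in 3′ UTRs, 5 (9.26%) in non-coding RNA genes and 4 (7.41%) in coding exons. Among the 9387 pooled summits below the threshold that lay in any gene window, the shares were 38%, 29.2%, 4.80%, 3.52% and 21.4%. Of the 31 intronic summits 27 were in egl-18, ajm-1 and vab-10 together.

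The replicates placed these weak summits only partly alike. Of the 54, 33 (61.1%) had an overlapping peak (at least 1 bp) in both relaxed lists, 10 in replicate 1 alone, 11 in replicate 2 alone and 0 in neither. For all 11300 nuclear pooled summits below the threshold the share in both was 56.2%. Among the strongest 12024 peaks of each replicate, 12 of the 54 (22.2%) were found in both, against 22.5% of all. When the summits of those strongest peaks had to lie within 100 bp of the pooled summit in both replicates, the number was 4. The share over all summits is not given for that rule, so the fall cannot be told from a general one. Counted by gene, 14 of the 30 had a summit among the strongest 12024 peaks of replicate 1 and 19 among those of replicate 2, where 42.3% of all genes had one in each. The 4 highest-placed peaks, those within the strongest 721 of a replicate, were in nhr-25 (replicate 1), egl-18 (replicate 2) and ajm-1 (both). That is 2 of 30 genes in each replicate, against 3.99% of all genes in replicate 1 and 3.8% in replicate 2.

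**Figure D4:**
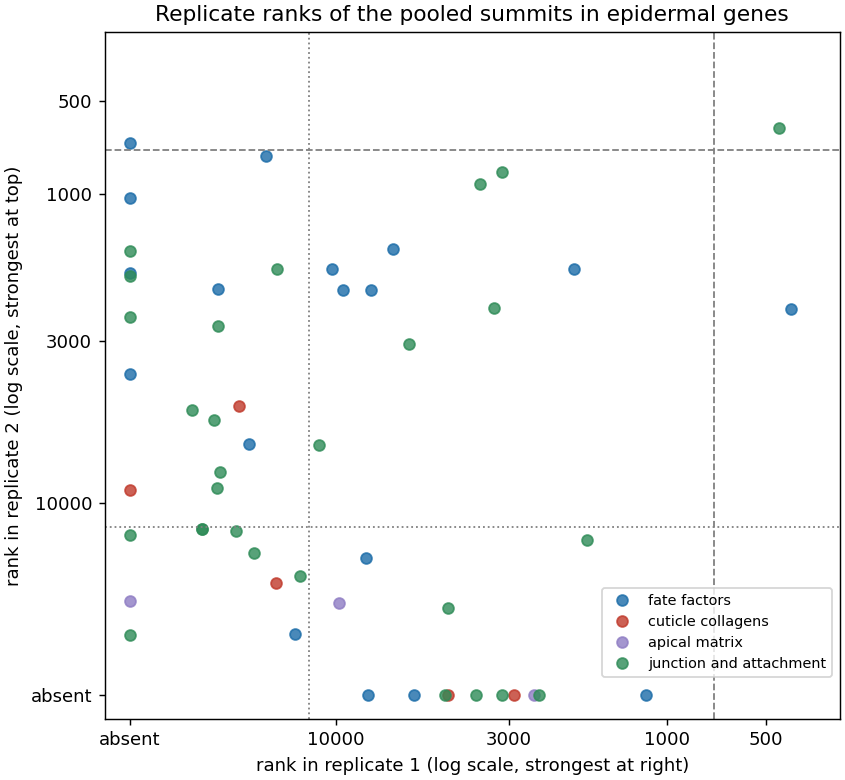
Rank of the overlapping peak in replicate 1 (x axis) and replicate 2 (y axis), both on log scales, for each of the 54 pooled summits, coloured by class; "absent" means no overlapping peak. Dotted lines mark rank 12024 and dashed lines rank 721, and a single ajm-1 summit lies beyond the dashed lines in both replicates.

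Short motifs were counted within 50 bp of the summits on both strands. GATAA occurred at 16 of the 54 (29.6%), against 18.9% of all 11300 nuclear pooled summits below the threshold. Of these, 7 were in egl-18, itself a GATA factor gene, at 7 of its 12 summits, and without egl-18 the share was 21.4%. AAGTTT occurred at 14 (25.9%, all summits 14.4%), 5 of them in vab-10, with 31% without egl-18, and GAGAGA at 6 (11.1%, all summits 10.1%). None of the 3 motifs contains another, and a match is a count of letters, not a measured site. The GC content of the 101 bases had a median of 39.6% in the 54 and 38.6% in all.

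A wider list of 51 other epidermal genes gave a setting for these counts. In all, 34 of 51 (66.7%) had a pooled summit in the gene window, where their length classes would give 27.4, and 3 had a thresholded summit, where 3.97% of all genes had one. The pooled summit in the mua-6 window (signal 16.35, rank 4874) is the one already counted for ifa-3, so the lists are not fully separate. By class, a pooled summit was found for 7 of 10 fate and fusion genes (5.62 by length class), 7 of 14 collagens and collagen enzymes (5.46), 8 of 12 matrix and moulting genes (6.40) and 12 of 15 junction and attachment genes (9.91). The E-cadherin gene hmr-1 (chromosome I, 11075755 to 11134667) had 23 pooled summits in a window of 60.9 kb, more than any other of the 19973 genes, with a best signal of 31.0 at rank 885, and it is named here after its values were seen. The highest pooled signals in promoter windows were 16.3 at the engrailed gene ceh-16 and 13.5 at bro-1 among fate genes, and 29.7 at the disulphide isomerase gene pdi-2, 28.3 at bli-6 and 25.45 at dpy-14 among collagens and their enzymes. In the matrix class they were 32.7 at the ZP domain gene dex-1, 18.7 at let-4 and 17.4 at mlt-11, and in the junction class 21.1 at the α-catenin gene hmp-1, 19.95 at crb-1 and 13.85 at hmr-1.

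All 3 wider genes with a thresholded summit were junction genes, named after their values were seen, and none of the summits lay in the gene's own promoter window. At dlg-1, whose product binds AJM-1, it lay 556 bp downstream of the 5′ end (chromosome X, 5480078 to 5480433, signal 34.3) in a stretch with the non-coding RNA genes C25F6.11 and C25F6.26. At the β-catenin gene hmp-2 it lay 1387 bp upstream (chromosome I, 14737455 to 14737544, signal 91.6), where the nearest 5′ end was that of K05C4.7, at 207 bp. At the p120 catenin gene jac-1 it was intronic, 2546 bp downstream (chromosome IV, 16024123 to 16024478, signal 48.9), with 4 piRNA genes within 250 bp.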

How the data were processed

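ChIP-seq peak lists of 2 biological replicates were used, on build ce11, per the labels. The deposited listing of files says that each relaxed list came from the alignments of 1 replicate, and the pooled list from those of both, each with a further file of unlisted kind, and the thresholded list from these by the irreproducible discovery rate. Aligner, peak caller and settings: not given in the sources used here. Signal, as deposited, is the caller's value for each peak; the deposited −log10 q-value entered no count. Nearly all peaks have a fixed width (356 bp in 11991 of 12024 pooled peaks), so a summit is mostly the peak centre. The depth of the libraries is unknown, and their number limits the precision.

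Summits were placed on the Ensembl release 115 annotation of WBcel235, the assembly of ce11, with Python 3.11.15 and pandas 2.3.3. Sequences came from the RefSeq genome of WBcel235. All 30 genes are named; the 10 with the highest pooled signal get positions, ranks and replicate values, and up to 3 genes per class of the wider list are named by promoter signal. The members, lists and motifs were chosen with earlier results of these data known. In the wider list ifa-2 was matched as mua-6.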

Additional observations from a re-analysis of the deposited data

How the results depend on the processing

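Of 71 values recomputed under the alternatives, 53 stayed within 1.5 times the value reported. The count of genes with a thresholded summit was 0 also with 5 kb upstream and with any overlap of the peak. The narrower windows and the stronger part of the list could not raise this count, yet its values of 0 there are among the 53. With the 721 strongest peaks of 1 replicate it was 2, without replicate 1 (all genes 3.8%) as without replicate 2 (3.99%). In the gene body alone, 11 genes had a pooled summit (all genes 22.5%), 0 of them collagens and 1 a matrix gene. With 1 kb upstream 3 collagens had a summit, and 3 again when only the nearest 5′ end counted, where the main window gave 5. Shares over all genes are not given for either rule. A fall among collagens therefore cannot be told from a general one. At or above the median signal, 10 genes had a summit: 3 fate genes, 1 collagen, 1 matrix gene and 5 junction genes. The density was then 0.106 per kb and 3 genes had a promoter summit (all genes 13.7%). Leaving out a replicate gave 14 to 19 genes with a summit (all genes 42.3% in each case), 2 to 6 of them collagens. It gave 5 to 10 genes with a promoter summit, for which no share over all genes is given. Of the 12 summits shared by the strongest 12024 peaks of both replicates, 4 remained with summits within 100 bp, a rule for which no share over all summits is given. Counting all relaxed peaks gave 33 (61.1%, all summits 56.2%) and the strongest 721 gave 1 (1.85%, all summits 0.469%). No paired analysis was possible because there is 1 group.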
